A study of Homo sapiens with 24 samples.

Results

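Ribosome biogenesis was followed through 55 genes for nucleolar proteins in ovarian cancer cells treated with the duplex-prodrug 5-FdU-ECyd. The genes were chosen by symbol, as factors of rRNA processing and ribosome assembly, and each was found in the deposited table through its Ensembl identifier. All 55 passed the filter on low counts, so that they make up 55 of the 63299 genes listed and 55 of the 20240 genes tested. By role they comprise 27 factors of the small (40S) subunit pathway, of which 5 belong to the UTP-A complex and 6 to the UTP-B complex, 3 proteins of box C/D and 3 of box H/ACA small nucleolar ribonucleoproteins (snoRNPs), 18 factors of the large (60S) subunit pathway and 4 abundant nucleolar hub proteins.

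Ribosomes are built in the nucleolus. RNA polymerase I transcribes a long precursor rRNA, and the UTP-A and UTP-B complexes bind its leading end while it is still being made and open the assembly of the small subunit. Box C/D snoRNPs guide methylation of the precursor and box H/ACA snoRNPs guide its pseudouridylation, while helicases, GTPases and scaffold proteins carry the particles of both subunits forward. The mRNAs of these factors are made by RNA polymerase II and are well-known targets of the transcription factor MYC.

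The study compared platinum-sensitive A2780 cells with their isogenic, platinum-resistant derivative A2780cis, whose resistance was maintained by cisplatin given at intervals of a few passages. Cells were left untreated or received 1 µM 5-FdU-ECyd, which couples 2'-deoxy-5-fluorouridine to 3'-C-ethynylcytidine, an inhibitor of RNA synthesis. Total RNA (TruSeq Stranded Total RNA kit) was sequenced after 6 h or 12 h. Untreated cells were taken at both times, giving 8 groups of 3 libraries. The labels number the replicates 1 to 3, and the study calls them biological replicates without saying whether they came from separate passages or days, so the p-values measure the spread between these libraries, and each line is a single derivation.

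The 24 libraries held 11077368 to 21901406 counts each, of which 105289 to 340628 fell on the 55 genes. Mitochondrially encoded genes took 5.1% to 6.54% of the counts in the untreated libraries and 6.95% to 9.94% in the treated ones, and their part in the results was not tested. Of 8 ovarian or epithelial markers, EMX2 had no count in any library and PAX8, WT1, KRT19 and CDH1 were at group means of at most 0.173 CPM (counts scaled to a library size of 1e+06). KRT18 was at 1.06 to 3.37 CPM in A2780 and 20.8 to 26.4 CPM in A2780cis, and KRT8 at 0.695 to 1.76 CPM and 3.9 to 6.36 CPM. EPCAM went the other way, at 0.645 to 1.56 CPM in A2780 and 0.186 to 0.895 CPM in A2780cis. The 8 markers summed to 2.1 to 7.22 CPM in A2780 libraries and 22.6 to 37.2 CPM in A2780cis libraries. Of 10 markers of other cell types, PTPRC and CD3E were at group means of at most 0.0193 CPM, but 3 stromal markers were present and did not move together. The collagen gene COL3A1 was at 206.0 to 293.8 CPM in A2780 and 1449.8 to 2021.7 CPM in A2780cis. COL1A1 was at 4.81 to 17.2 CPM and 0.365 to 2.89 CPM, and ACTA2 at 54.4 to 70.1 CPM and 2.93 to 4.72 CPM, both lower in A2780cis. CD68 was at 2.83 to 3.53 CPM in A2780 and 5.9 to 7.44 CPM in A2780cis. All values are relative to the RNA sequenced, so that fewer cells and less RNA per cell cannot be told apart.

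Promoters show the DNA next to which these genes are transcribed, and the E-box CACGTG, a palindromic site bound by MYC and related factors, was searched in them. A RefSeq promoter window (GRCh38.p14, 250 bases before to 50 after the start) was matched for 46 of the 55 genes, and 17 of these (37.0%) held CACGTG, against 7.26% of all 35116 windows and 9.9% of the 12062 windows of genes tested. The share was 46.2% (6 of 13) among the 40S factors outside UTP-A and UTP-B and 42.9% (6 of 14) among 60S factors, while none of 3 box H/ACA proteins and none of 3 hub proteins with a window held it. The genes shown lie at both ends of the response at 12 h by the mean of both lines, and BOP1, which was lower still, is not shown. UTP20 (chr12:101279855-101280104, plus strand), DDX10 (chr11:108664819-108665068, plus strand) and MDN1 (chr6:89819795-89820044, minus strand) were the lowest, and FBL (chr19:39846380-39846629, minus strand), NHP2 (chr5:178153886-178154135, minus strand) and IMP3 (chr15:75640225-75640474, minus strand) the highest of the genes with a window. Each line holds the 250 bases before the start, 5′ to 3′, with CACGTG in capitals.
UTP20: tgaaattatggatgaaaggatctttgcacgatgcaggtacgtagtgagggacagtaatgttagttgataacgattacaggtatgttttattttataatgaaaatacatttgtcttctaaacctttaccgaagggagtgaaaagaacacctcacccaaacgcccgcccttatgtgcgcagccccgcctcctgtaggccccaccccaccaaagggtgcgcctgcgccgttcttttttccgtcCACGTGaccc
DDX10: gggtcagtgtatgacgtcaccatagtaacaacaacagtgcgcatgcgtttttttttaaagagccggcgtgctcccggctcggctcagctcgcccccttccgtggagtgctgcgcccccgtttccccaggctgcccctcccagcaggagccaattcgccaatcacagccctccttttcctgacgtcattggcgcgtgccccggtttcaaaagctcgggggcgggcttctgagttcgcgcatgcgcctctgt
MDN1: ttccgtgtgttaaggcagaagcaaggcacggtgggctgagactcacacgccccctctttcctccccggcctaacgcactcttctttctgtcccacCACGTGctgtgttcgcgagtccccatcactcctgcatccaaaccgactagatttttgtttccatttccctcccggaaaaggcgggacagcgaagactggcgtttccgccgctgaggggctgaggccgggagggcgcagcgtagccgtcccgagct
FBL: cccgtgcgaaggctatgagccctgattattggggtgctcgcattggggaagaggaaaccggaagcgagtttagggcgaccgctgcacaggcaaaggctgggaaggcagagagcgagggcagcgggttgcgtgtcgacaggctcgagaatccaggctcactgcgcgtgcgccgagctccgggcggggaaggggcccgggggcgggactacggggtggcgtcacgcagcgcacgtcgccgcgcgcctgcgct
NHP2: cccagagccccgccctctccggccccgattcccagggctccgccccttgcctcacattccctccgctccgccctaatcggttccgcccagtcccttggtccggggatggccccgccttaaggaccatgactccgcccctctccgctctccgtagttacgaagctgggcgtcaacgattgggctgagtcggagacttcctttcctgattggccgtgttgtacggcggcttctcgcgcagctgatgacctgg
IMP3: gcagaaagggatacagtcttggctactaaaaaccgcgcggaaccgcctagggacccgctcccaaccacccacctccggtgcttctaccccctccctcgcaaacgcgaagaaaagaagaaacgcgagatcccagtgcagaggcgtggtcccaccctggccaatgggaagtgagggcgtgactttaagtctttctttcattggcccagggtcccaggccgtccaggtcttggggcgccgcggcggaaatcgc

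In these 250 bases UTP20 and MDN1 each held the motif once and the other 4 genes held none. The full windows, which run on past the start, held it a second time in MDN1 and once in FBL. The first base of the printed motif lay at position -10 from the start in UTP20 and at -155 in MDN1. At 12 h in A2780 the median log2 fold change was -0.79 for the 17 genes with the motif and -0.90 for the 29 without it, and in A2780cis -0.93 and -0.80, so that the order of these medians differed between the lines. A match of these letters is a description of the sequence and not a binding site.

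Levels of different genes were compared per kilobase of exon (RPKM). In untreated A2780 cells at 6 h the nucleolar chaperone NPM1 was the most abundant, at 451.7 ± 37.4 RPKM (SD, n = 3), followed by the rRNA-binding protein NCL at 234.0 ± 5.05 RPKM. The snoRNP chaperone NOLC1 reached 133.3 ± 7.39 RPKM and the RNA helicase DDX21 114.0 ± 5.75 RPKM, and the libraries of these neighbours in the order did not overlap, whereas DDX21 overlapped with the methyltransferase FBL at 101.6 ± 13.9 RPKM. The length used joins all annotated exons of a gene, 3970 bases for NOLC1 and 9274 for DDX21. Their longest transcripts have 3967 and 4776 bases, so that the order of such genes depends on the length chosen. The lowest levels were those of NOC4L at 2.91 ± 1.37 RPKM and TBL3 at 2.36 ± 0.678 RPKM, which did not differ beyond their spread. In untreated A2780cis cells at 6 h, NPM1 (425.8 ± 62.2 RPKM) and NCL (369.3 ± 27.9 RPKM) led again, and TBL3 (2.22 ± 0.258 RPKM) was again the lowest.

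The first question was how 5-FdU-ECyd changed these mRNAs. At 6 h in A2780, 28 of the 55 genes were called lower and 1 higher (edgeR quasi-likelihood test, Benjamini-Hochberg adjusted p at most 0.05 over all genes tested), where 13.4% of all genes tested were called lower and 16.0% higher. At 12 h in A2780, 51 were called lower and none higher, with a background of 26.1% lower and 28.6% higher, and all 55 log2 fold changes were negative. In A2780cis, 32 were called lower and none higher at 6 h (background 16.3% and 14.4%), and 50 lower and 2 higher at 12 h (28.9% and 31.0%). The median log2 fold change of the 55 genes was -0.26 at 6 h and -0.88 at 12 h in A2780, and -0.30 and -0.87 in A2780cis, while the medians over all genes tested were 0.04, 0.02, 0.00 and 0.04 in the same order.

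Together the 55 genes took 1.36% ± 0.0707 of the counts in untreated and 0.786% ± 0.0347 in treated A2780 libraries at 12 h, and 1.54% ± 0.0472 and 0.905% ± 0.0191 in A2780cis (SD, n = 3 each). At 6 h the shares were 1.48% ± 0.0261 and 1.28% ± 0.0455 in A2780, and 1.64% ± 0.00726 and 1.39% ± 0.0256 in A2780cis. Treated and untreated libraries did not overlap in any of these 4 comparisons. With library size alone as the scale, the median of all genes in A2780 at 12 h was 0.24 and that of the 55 was -0.66, and 46 of the 55 were called lower. In that fit 3349 of the 20240 genes tested were called lower and 8084 higher. That scale also raised the share of higher calls among all calls from 52.3% to 70.7% in A2780 at 12 h and from 47.0% to 61.4% in A2780cis at 6 h.

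**Figure D1:**
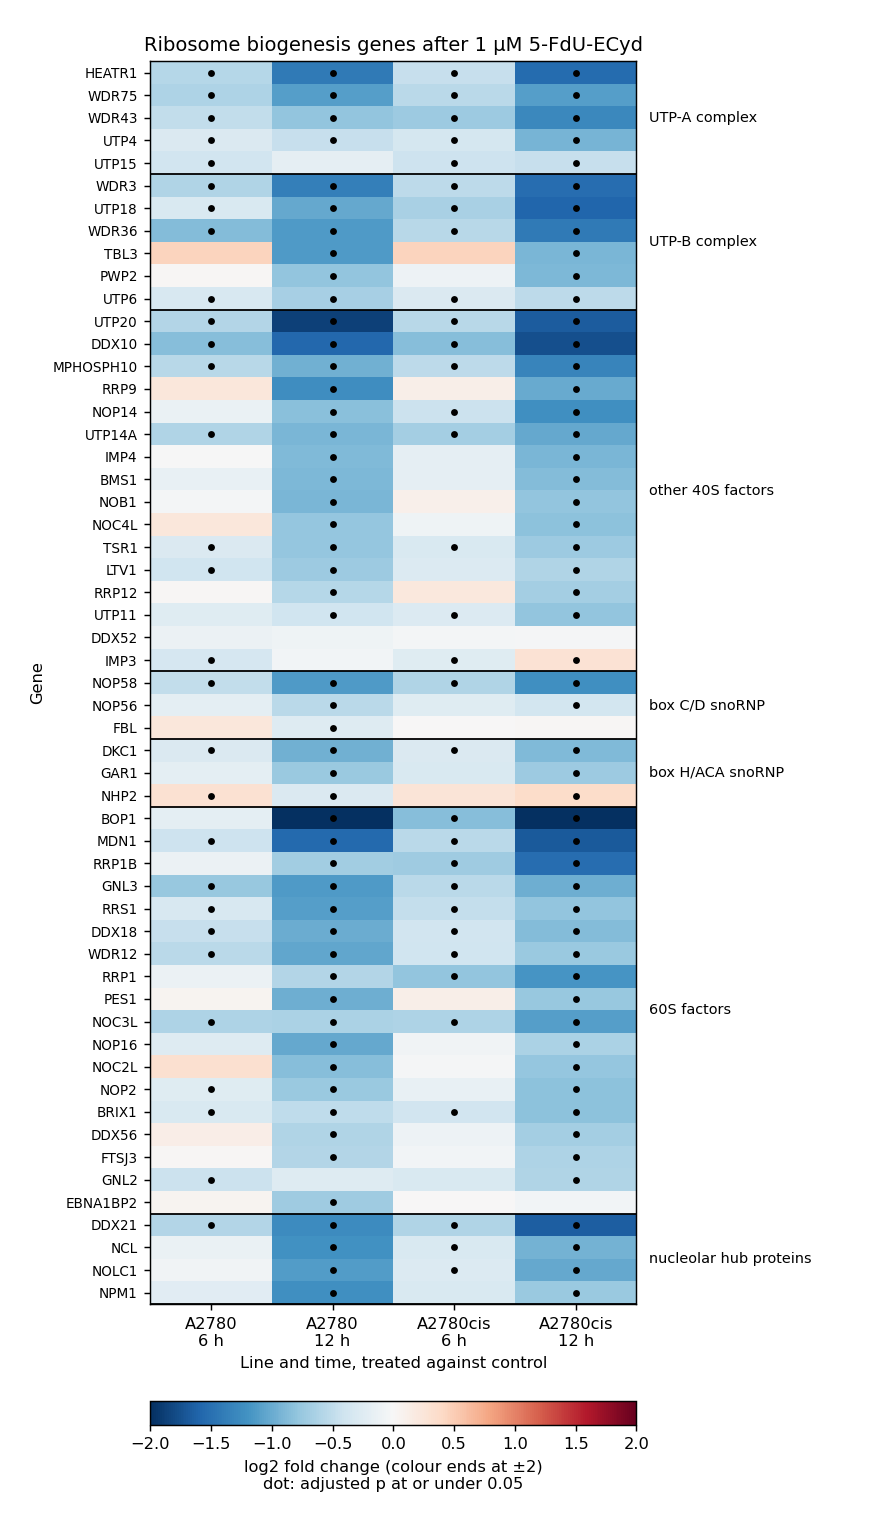
Log2 fold change, treated against control, of each of the 55 genes (rows, grouped by role and ordered by the mean change at 12 h) in each line and time (columns). Blue is lower and red higher after treatment, the colour scale ends at ±2, and a dot marks an adjusted p at or under 0.05, which 51 genes carry on the blue side at 12 h in A2780 and 50 in A2780cis.

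In the UTP-A complex all 5 genes were called lower at 6 h in both lines, and at 12 h all 5 in A2780cis and 4 in A2780. HEATR1, a large scaffold subunit, was at 575.2, 610.5 and 529.8 CPM in untreated and 364.2, 379.8 and 416.0 CPM in treated A2780 at 6 h. At 12 h the untreated libraries held 504.6, 486.6 and 444.2 CPM and the treated ones 182.0, 169.6 and 184.5 CPM. The treated libraries lay below all untreated ones at both times, and the log2 fold change was -0.56 ± 0.10 (SE) at 6 h and -1.42 ± 0.10 at 12 h (edgeR adjusted p = 8.84e-05 and 6.51e-12). In A2780cis at 12 h HEATR1 was at 463.3, 436.1 and 407.0 CPM untreated and 160.6, 155.1 and 135.4 CPM treated, again apart, a log2 fold change of -1.53.

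Another UTP-A subunit, WDR75, fell by 1.09 in A2780 and by 1.10 in A2780cis at 12 h on the log2 scale. UTP15 changed least in this complex. At 12 h in A2780 it was at 64.0, 59.3 and 53.9 CPM in untreated and 57.5, 50.0 and 48.9 CPM in treated libraries, which overlapped, and its log2 fold change of -0.18 was not called (edgeR adjusted p = 0.12) and was 0.04 with library size alone. In A2780cis UTP15 was at 73.3, 62.4 and 59.5 CPM and 49.9, 46.0 and 46.3 CPM, without overlap, and its log2 fold change of -0.46 was called (edgeR adjusted p = 0.000262).

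In the UTP-B complex all 6 genes were called lower at 12 h in both lines, and 4 of them at 6 h in both. WDR3 was at 217.6, 211.2 and 193.6 CPM in untreated and 91.4, 75.7 and 75.3 CPM in treated A2780 at 12 h, well apart, with a log2 fold change of -1.36 ± 0.11. In A2780cis it was at 142.6, 121.7 and 110.4 CPM and 48.8, 41.5 and 40.2 CPM, a log2 fold change of -1.52, and the groups were apart as well. WDR36 had the most negative change of the 55 genes at 6 h in A2780, from 142.6, 131.1 and 123.6 CPM to 64.0, 72.6 and 81.4 CPM (log2 fold change -0.87 ± 0.13, edgeR adjusted p = 1.42e-05). UTP6 changed least in this complex, by -0.67 in A2780 and -0.52 in A2780cis at 12 h. The subunits not called at 6 h in either line were PWP2, at log2 fold changes of 0.03 in A2780 and -0.10 in A2780cis, and TBL3, at 0.44 in both.

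Of the 16 other 40S factors, 7 were called lower at 6 h and 14 at 12 h in A2780, and 8 and 14 in A2780cis. UTP20, a large scaffold protein of the early 40S particle, stood at 198.6, 214.1 and 189.5 CPM in untreated and 117.9, 139.0 and 144.1 CPM in treated A2780 at 6 h. At 12 h it was at 175.5, 171.1 and 147.8 CPM and 47.4, 41.8 and 46.4 CPM, so that the groups were apart at both times and further apart at 12 h, with a log2 fold change of -1.87 ± 0.11 (edgeR adjusted p = 6.95e-13). In A2780cis at 12 h it fell by 1.66 on the log2 scale. The RNA helicase DDX10 was at 76.8, 71.6 and 70.5 CPM in untreated and 21.6, 20.2 and 22.9 CPM in treated A2780cis at 12 h, without overlap. Its log2 fold change at 6 h was -0.85 in each line. At 12 h it was -1.57 for A2780 and -1.76 for A2780cis.

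IMP3 and DDX52 were called lower in neither line at 12 h. IMP3, a partner of the U3 snoRNP, was at 62.0, 59.7 and 61.1 CPM in untreated and 48.8, 49.7 and 46.7 CPM in treated A2780 at 6 h, without overlap, a log2 fold change of -0.33 (edgeR adjusted p = 0.00617). At 12 h in A2780 it was at 54.1 to 59.9 CPM untreated and 53.5 to 56.9 CPM treated, which overlapped, and its log2 fold change of -0.06 was 0.16 with library size alone. In A2780cis at 12 h it was at 46.9, 45.6 and 45.9 CPM untreated and 53.2, 51.6 and 64.1 CPM treated, all treated libraries higher, with a log2 fold change of 0.29 ± 0.09 (edgeR adjusted p = 0.00623). Without treated replicate 3, the highest of these libraries, the change was 0.15 (edgeR adjusted p = 0.133), and with the GC trend described with the untreated cells removed it was 0.17 (edgeR adjusted p = 0.224). The call was also lost without the filter (0.23) and with only the compared libraries in the fit (0.28). The helicase DDX52 was at 75.5 to 85.5 CPM untreated and 70.4 to 81.8 CPM treated in A2780 at 12 h, and at 64.4 ± 5.46 CPM and 63.5 ± 2.26 CPM in A2780cis (mean and SD, n = 3), with overlap in both lines and log2 fold changes of -0.09 and -0.02.

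**Figure D2:**
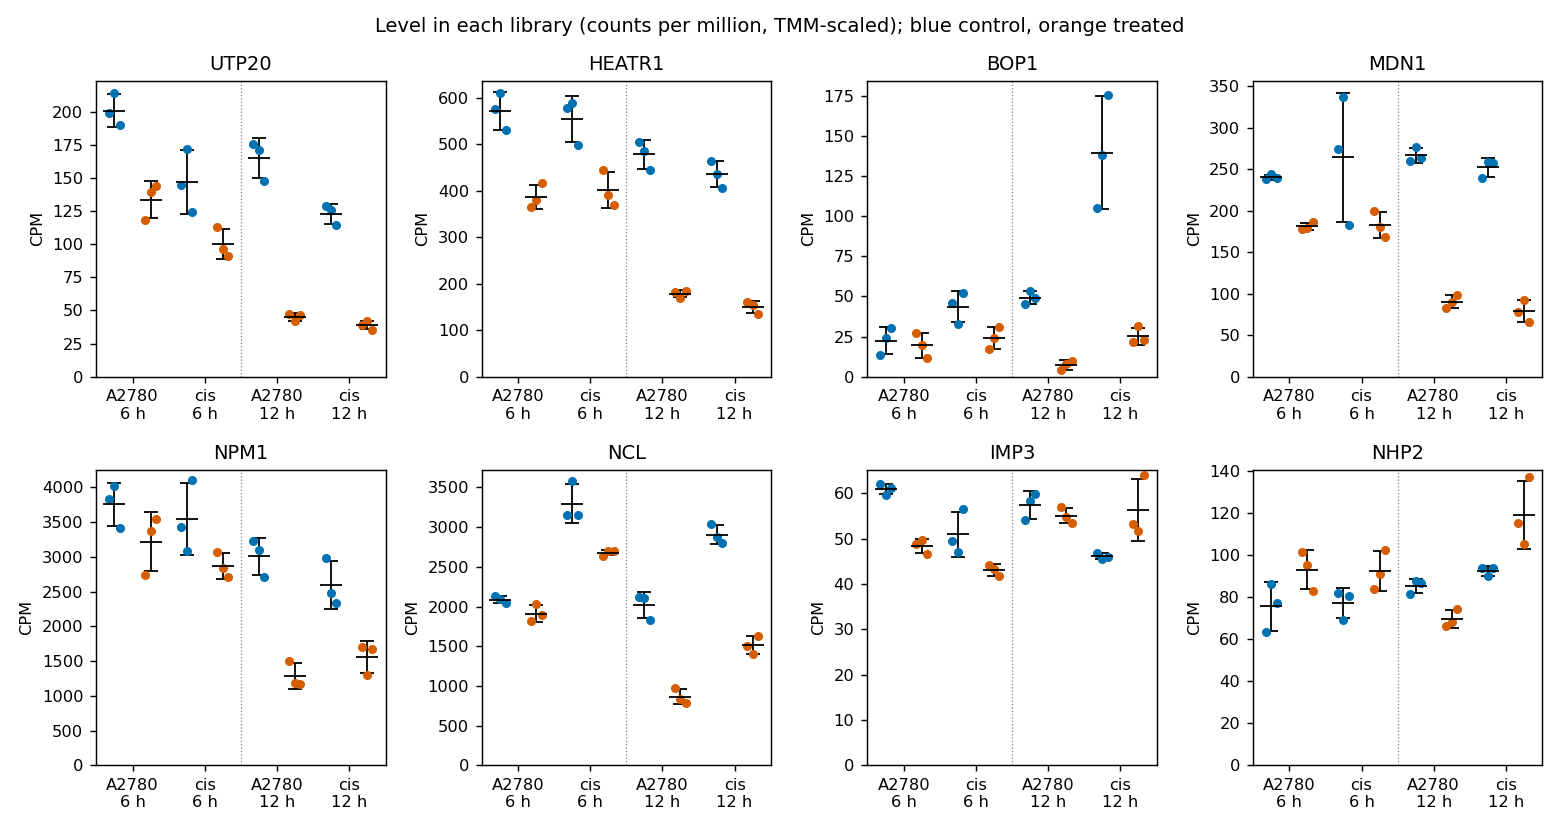
CPM (TMM-scaled, linear axes from 0) of 8 genes in each of the 24 libraries, by line and time. Points are libraries, blue untreated and orange treated, and black bars are the mean with the SD of 3. At 12 h the treated libraries lie below all untreated ones of their line for UTP20, HEATR1, BOP1, MDN1, NPM1 and NCL, and above them for IMP3 and NHP2 in A2780cis ("cis").

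Among box C/D proteins, the core scaffold NOP58 was called lower at both times in each line. It was at 243.2, 234.6 and 180.5 CPM in untreated and 110.8, 98.5 and 90.3 CPM in treated A2780 at 12 h, without overlap (log2 fold change -1.14 ± 0.11), and its log2 fold change in A2780cis was -1.23. FBL, the methyltransferase of the same particles, was at 234.7, 232.4 and 258.3 CPM in untreated and 217.2, 197.5 and 191.3 CPM in treated A2780 at 12 h. All treated libraries were lower, and the log2 fold change of -0.26 (edgeR adjusted p = 0.0357) was -0.22 without untreated replicate 3, -0.25 without treated replicate 2 and -0.23 without treated replicate 3 (edgeR adjusted p = 0.128, 0.0859 and 0.107), and -0.04 with library size alone. In A2780cis at 12 h FBL was at 276.6 to 287.9 CPM and 247.4 to 337.2 CPM, which overlapped, with a log2 fold change of 0.02 that was -0.11 with the GC trend removed. NOP56, another core protein, changed by -0.54 in A2780 and by -0.36 in A2780cis at 12 h and was called in both.

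Among box H/ACA proteins, the pseudouridine synthase DKC1 was at 226.2, 217.7 and 212.6 CPM in untreated and 121.3, 113.8 and 104.1 CPM in treated A2780 at 12 h, a log2 fold change of -0.95. In A2780cis it was at 355.5, 309.6 and 297.4 CPM and 189.1, 147.8 and 184.8 CPM, a log2 fold change of -0.88, with no overlap in either line. NHP2, a core protein of these particles, was the gene called higher at 6 h in A2780, where it was at 63.2, 86.4 and 77.1 CPM in untreated and 101.2, 95.0 and 82.8 CPM in treated libraries. These overlapped, and the log2 fold change of 0.30 (edgeR adjusted p = 0.045) was 0.01 with the GC trend removed. It was also 0.18 and 0.32 without untreated replicate 1 or 3 (edgeR adjusted p = 0.297 and 0.0701) and 0.23 and 0.28 without treated replicate 1 or 2 (edgeR adjusted p = 0.201 and 0.115). The call was lost as well with size factors as in DESeq2 (0.26), with the DESeq2 test (0.27), without lncRNA and rRNA genes (0.27) and with only the compared libraries in the fit (0.30).

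At 12 h NHP2 was at 81.3, 87.8 and 86.5 CPM in untreated and 66.1, 68.0 and 74.5 CPM in treated A2780, all treated libraries lower. In A2780cis it was at 93.9, 89.8 and 93.7 CPM and 115.1, 105.0 and 136.8 CPM, all treated libraries higher. The log2 fold changes were -0.29 and 0.36 (edgeR adjusted p = 0.0281 and 0.00596). In A2780 the fall was -0.07 with library size alone and lay between -0.27 and -0.29, not called, without untreated replicate 2 or 3 or treated replicate 1 or 2, and in A2780cis the rise was 0.22 without treated replicate 3 (edgeR adjusted p = 0.101). NHP2 shares 28.0% of its exon length with RMND5B on the opposite strand, and the strand setting of the counting is not given in the sources used here, so that reads of such pairs cannot be told apart.

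Of the 18 factors of the 60S pathway, 17 were called lower at 12 h in each line. BOP1, a scaffold that acts with PES1 and WDR12 in processing of the large-subunit rRNA, had the most negative change of the 55 genes at 12 h in both lines. In A2780 at 12 h it was at 45.1, 53.2 and 49.2 CPM untreated and 4.06, 8.16 and 9.72 CPM treated, a log2 fold change of -2.72 ± 0.31 (edgeR adjusted p = 4.04e-08). In A2780cis it was at 104.9, 138.3 and 175.6 CPM and 21.5, 31.4 and 23.1 CPM, a log2 fold change of -2.46 ± 0.28, and the groups were far apart in both lines. At 6 h in A2780 the libraries overlapped, at 13.4 to 30.1 CPM untreated and 11.9 to 27.3 CPM treated, and the log2 fold change of -0.19 was 0.08 without replicate 3 of either group. In A2780cis at 6 h it was at 46.2, 32.8 and 51.9 CPM untreated and 17.3, 24.2 and 30.8 CPM treated, without overlap, and was called lower (log2 fold change -0.85 ± 0.28, edgeR adjusted p = 0.0248). That call was lost with library size alone (-0.74) and without untreated replicate 1 or 3 (-0.81 and -0.70) or treated replicate 1 or 2 (-0.66 and -0.84). Its transcript has the highest GC content of the 55, at 65.6%, and with the GC trend removed its log2 fold changes at 12 h were -2.73 in A2780 and -2.50 in A2780cis.

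MDN1, the giant AAA ATPase that strips assembly factors from the pre-60S particle, was at 259.5, 276.6 and 263.6 CPM in untreated and 83.1, 89.6 and 98.2 CPM in treated A2780 at 12 h, without overlap. Its log2 fold change was -1.56 in A2780 and -1.68 in A2780cis. NOP2, an rRNA methyltransferase, changed by -0.75 in A2780 and by -0.82 in A2780cis at 12 h. The nucleolar GTPase GNL3 (nucleostemin) was at 293.7, 302.3 and 263.2 CPM in untreated and 156.6, 177.4 and 174.1 CPM in treated A2780 at 6 h, already apart, with a log2 fold change of -0.76 that was -1.13 at 12 h.

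The related GTPase GNL2 was at 124.9, 119.3 and 97.1 CPM in untreated and 107.0, 90.8 and 86.5 CPM in treated A2780 at 12 h, which overlapped (log2 fold change -0.26, edgeR adjusted p = 0.0629). At 6 h in A2780 its change was -0.44 (edgeR adjusted p = 0.00756), and this call was lost without untreated replicate 2 or treated replicate 1 (-0.34 and -0.36). In A2780cis the change was -0.30 at 6 h and -0.59 at 12 h (edgeR adjusted p = 0.0539 and 0.000132). EBNA1BP2, a 60S assembly factor, was at 213.9, 191.4 and 179.3 CPM in untreated and 132.3, 112.0 and 114.7 CPM in treated A2780 at 12 h, apart, with a log2 fold change of -0.70. In A2780cis it was at 224.4, 203.8 and 206.8 CPM and 209.3, 167.9 and 236.0 CPM, which overlapped, and its log2 fold change of -0.05 was 0.05 with library size alone.

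All 4 hub proteins were called lower at 12 h in both lines. NPM1 was at 3222.3, 3097.9 and 2705.7 CPM in untreated and 1507.5, 1183.7 and 1164.2 CPM in treated A2780, a log2 fold change of -1.23 ± 0.14. In A2780cis it was at 2986.8, 2473.4 and 2330.3 CPM and 1701.5, 1298.6 and 1678.4 CPM, a log2 fold change of -0.74 ± 0.14. NCL was at 2123.8, 2102.9 and 1824.9 CPM and 974.9, 836.3 and 789.9 CPM in A2780 (log2 fold change -1.22) and at 3036.2, 2877.4 and 2801.0 CPM and 1505.3, 1406.4 and 1626.1 CPM in A2780cis (-0.94). The groups of both genes lay apart in both lines. At 6 h the change of NPM1 was -0.22 in A2780 and -0.30 in A2780cis, and neither was called. DDX21, a helicase of rRNA processing and RNA polymerase I transcription, fell by 0.58 in A2780 and 0.60 in A2780cis at 6 h, and by 1.26 and 1.65 at 12 h.

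The second question was how the response grew with time. Of the 55 genes, 23 were called lower at both times in both lines (background 6.76% of all genes tested), and 16 were not called lower at 6 h in either line but were at 12 h in both (6.45%). The latter were BMS1, DDX56, FTSJ3, GAR1, IMP4, NOB1, NOC2L, NOC4L, NOP16, NOP56, NPM1, PES1, PWP2, RRP12, RRP9 and TBL3. Genes called lower at 6 h had a median GC content of 41.7% in A2780 and 42.6% in A2780cis. Those not called had 52.8% and 54.3%. With the GC trend described with the untreated cells removed, PWP2 of this list was called lower at 6 h in A2780. The list was not drawn up again in that fit. Tested directly as the change of the treatment effect from 6 to 12 h, the effect was called more negative for 38 genes and more positive for none in A2780 (background 13.0% and 10.7% of all genes tested), and for 38 and 1 in A2780cis (13.6% and 10.3%), and 30 genes were called more negative in both lines (6.54%). The effect moved by a median of -0.62 for A2780 and -0.58 for A2780cis, where all genes tested had medians of -0.02 and -0.03. Spearman's rho of this change with GC content over the 55 genes was -0.42 in A2780 and -0.16 in A2780cis. With library size alone the median of all genes was 0.13 in A2780 and 33 of the 55 were called more negative, and the share of higher calls among all calls rose from 45.1% to 69.7%. Of the 20240 genes tested, 1431 were then called more negative and 3299 more positive.

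NOLC1 and UTP20 had the smallest p values for this change in A2780. NOLC1 was at 507.8 to 562.6 CPM in untreated and 480.0 to 528.8 CPM in treated A2780 at 6 h, which overlapped, and at 560.1, 564.0 and 552.4 CPM and 277.0, 255.2 and 240.3 CPM at 12 h, which did not. Its log2 fold change went from -0.07 to -1.12, a change of -1.05 (edgeR adjusted p = 2.06e-06), and that of UTP20 moved by -1.28 (edgeR adjusted p = 3.81e-06). In A2780cis the smallest p values belonged to HEATR1 (-1.07) and UTP20 (-1.10), while IMP3 moved the other way, by 0.53 (edgeR adjusted p = 0.0031). Each of these values rests on all 4 groups of a line, the untreated cells of both times included.

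**Figure D3:**
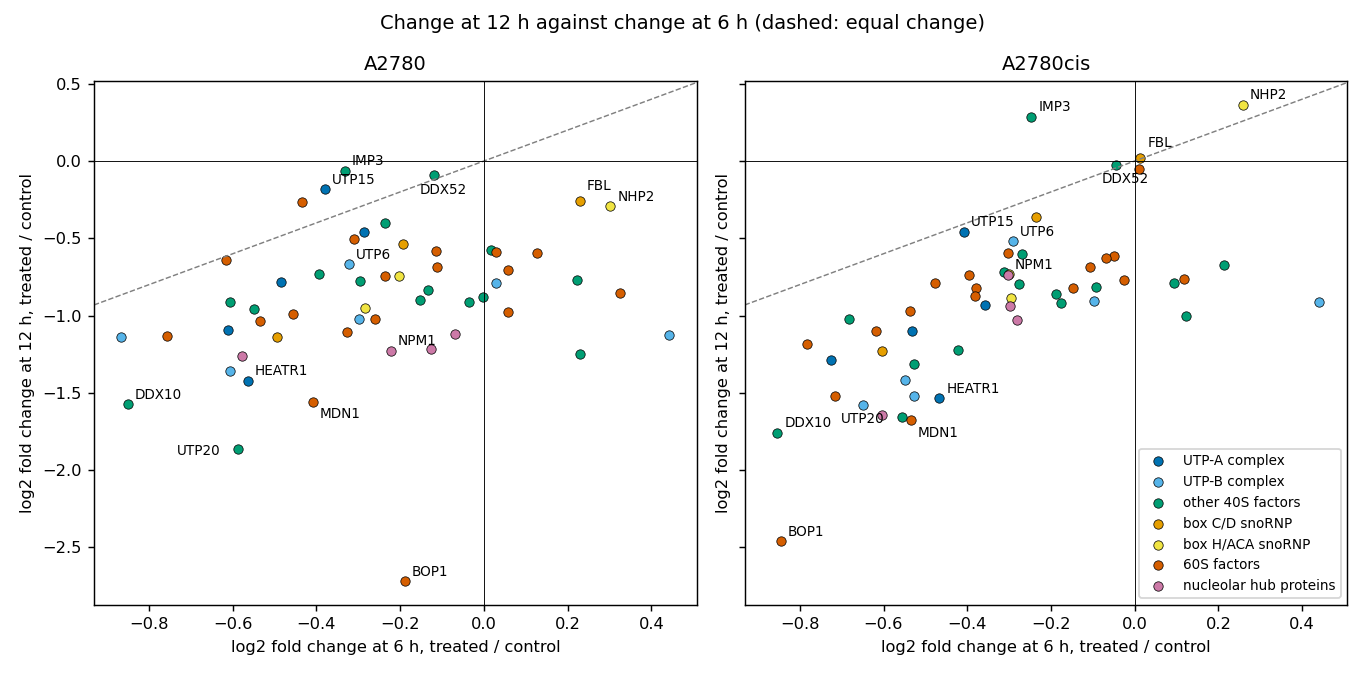
Log2 fold change at 12 h (vertical) against that at 6 h (horizontal), treated over control, for each of the 55 genes in A2780 (left) and A2780cis (right), coloured by role, with a dashed line at equal change. In each line 51 of the 55 genes lie below the dashed line, with BOP1 the lowest at 12 h, and IMP3 lies above it in both.

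The third question was whether the lines differed in their response. At 6 h, 2 genes were called with a more negative effect in A2780cis and none with a more positive one (background 2.38% and 0.692%). At 12 h, 7 (12.7%) were called more negative and 3 more positive (background 14.0% and 9.7%), so that neither share exceeded that of all genes tested. The other 45 of the 55 were not called, which does not show that their effects were equal. With library size alone, the median of all genes for this difference at 12 h was -0.16, the share of lower calls among all calls rose from 59.0% to 73.0%, and 13 of the 55 genes were called more negative and 2 more positive. Over all genes, 3900 of the 20240 tested were called more negative on that scale and 1443 more positive.

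RRP1 and RRP1B, paralogous proteins of 60S processing, were called at both times. RRP1B was at 165.5, 180.4 and 189.5 CPM in untreated and 109.5, 112.4 and 110.5 CPM in treated A2780 at 12 h, and at 186.3, 217.9 and 206.5 CPM and 71.3, 81.5 and 59.8 CPM in A2780cis. The treated A2780cis libraries were the lowest, and the difference of the effects was -0.83 ± 0.15 on the log2 scale (edgeR adjusted p = 0.000391). RRP1 was at 34.5, 32.7 and 41.5 CPM and 23.3, 24.9 and 24.4 CPM in A2780, and at 59.7, 66.2 and 72.8 CPM and 27.1, 30.6 and 29.5 CPM in A2780cis, where untreated cells held more, and the difference was -0.61 (edgeR adjusted p = 0.00614). The genes lie near each other on chromosome 21 in GRCh38, RRP1B at 43659560 to 43696079 and RRP1 at 43789513 to 43805293, with the UTP-B gene PWP2 at 44107373 to 44131181, whose difference at 12 h was -0.12 and not called. A stretch set around RRP1B and RRP1, from 43529186 to 44244993, held 11 other genes tested, PWP2 included. Of these genes, 4 were called more negative and 1 more positive in A2780cis (background 14.0% and 9.7% of all genes tested), and a local effect was not tested. Those between RRP1B and RRP1, named after their values were seen, were PDXK (-0.74, edgeR adjusted p = 0.00233) and CSTB (0.22, edgeR adjusted p = 0.176).

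At 6 h the differences were -0.67 for RRP1 and -0.60 for RRP1B, from effects of -0.11 in A2780 for both genes and of -0.78 and -0.72 in A2780cis. Both calls were lost with library size alone, with only the compared libraries in the fit, and without untreated A2780 replicate 1, treated A2780 replicate 1 or treated A2780cis replicate 1, where RRP1 was at -0.57, -0.63 and -0.62 and RRP1B at -0.56, -0.60 and -0.60. That of RRP1B was also lost without treated A2780 replicate 2 (-0.60), untreated A2780cis replicate 2 (-0.45) or treated A2780cis replicate 2 (-0.57).

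**Figure D4:**
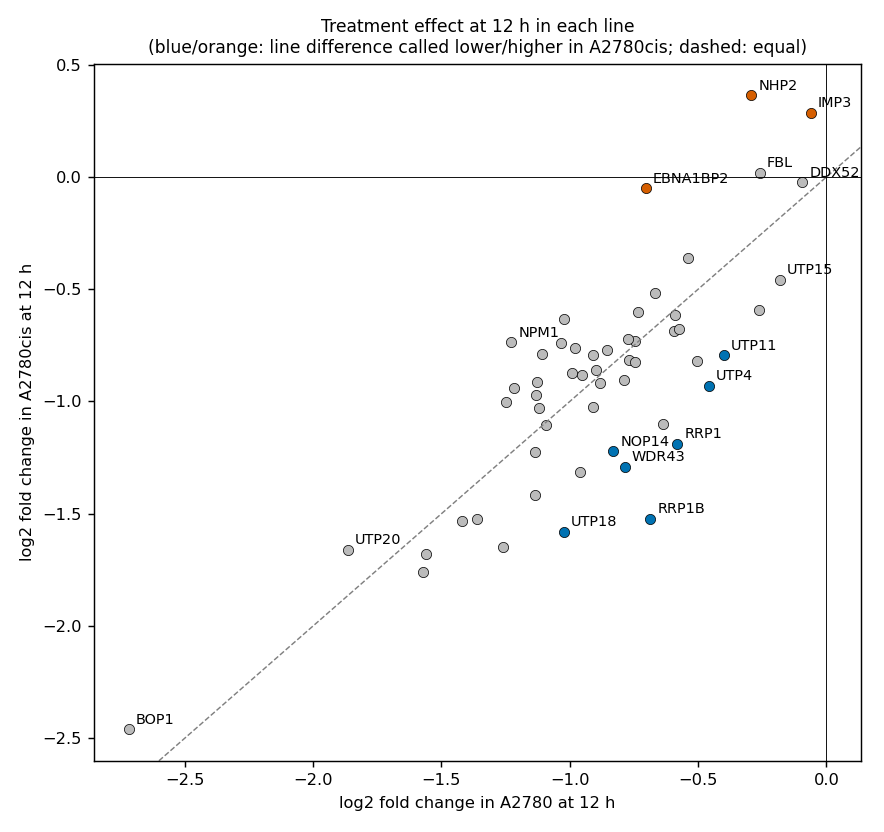
Log2 fold change at 12 h in A2780cis (vertical) against A2780 (horizontal) for each of the 55 genes, with a dashed line at equal effects. Blue points are the 7 genes with a called difference toward a more negative effect in A2780cis, orange points the 3 toward a more positive one, and grey points the 45 without a called difference.

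The other genes with a more negative effect in A2780cis at 12 h were the UTP-A subunits UTP4 (-0.47) and WDR43 (-0.50), the UTP-B subunit UTP18 (-0.56) and the 40S factors NOP14 (-0.39) and UTP11 (-0.40), where each value is the difference of the log2 fold changes. WDR43 was at 216.6, 199.9 and 180.4 CPM in untreated and 127.0, 108.3 and 110.9 CPM in treated A2780, and at 254.5, 223.8 and 218.8 CPM and 101.9, 93.6 and 89.5 CPM in A2780cis. Its untreated libraries were higher and its treated ones lower in A2780cis than in A2780. With only the compared libraries in the fit, UTP4 (-0.41), NOP14 (-0.33) and UTP11 (-0.34) were not called. Without the filter on low counts the calls of NOP14 (-0.42) and UTP11 (-0.42) were lost, and without lncRNA and rRNA genes that of UTP11 (-0.36). The count of more negative calls was 4 without treated A2780 replicate 1, where UTP18 (-0.42), NOP14 (-0.30) and UTP11 (-0.30) were not called. NOP14 and UTP11 were also lost in several other fits that leave out 1 library, with values of -0.39 to -0.36 for NOP14 and -0.42 to -0.27 for UTP11, and the libraries were untreated A2780 replicates 1 and 2 and untreated A2780cis replicates 2 and 3 for NOP14, and untreated A2780 replicates 2 and 3, treated A2780 replicates 2 and 3, untreated A2780cis replicates 1 and 2 and treated A2780cis replicate 2 for UTP11.

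The more positive differences were those of NHP2 (0.66), EBNA1BP2 (0.65) and IMP3 (0.35), and all 3 genes were at their highest treated level at 12 h in replicate 3 of A2780cis. Without that library the difference was 0.53 for NHP2, 0.53 for EBNA1BP2 and 0.24 for IMP3 (edgeR adjusted p = 0.0171, 0.0108 and 0.165). The call of IMP3 was also lost without untreated A2780 replicate 2 or 3, treated A2780 replicate 2 or 3, or any of the 3 untreated A2780cis libraries, with values of 0.32 to 0.36. It was lost too with library size alone (0.23), without the filter (0.32) and with the GC trend removed (0.32). The count of more positive calls was 7 without treated A2780cis replicate 2, 6 without treated A2780 replicate 1 and 9 with the GC trend removed (background of that fit 15.9%).

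Other genes of the same pathway, from lists that do not hold the 55, were also mostly lower. These lists, like the 55, were chosen with earlier results of these data known. Of 76 other assembly factors of both subunits, 57 were called lower and 2 higher at 12 h in A2780 (background 26.1% and 28.6% of all genes tested, median log2 fold change -0.56), and 57 and 5 in A2780cis (28.9% and 31.0%, median -0.58). The lowest by the mean of both lines was PDCD11, a scaffold of early rRNA processing, at -1.27 and -1.40, and in the 60S pathway the helicase DDX51, at -1.01 and -1.26. UTP3 rose, by 0.35 in A2780 and 0.72 in A2780cis, and SBDS, which readies the finished 60S subunit for translation, rose by 0.33 in A2780cis and was at 0.25, not called, in A2780. Of 19 subunits and factors of RNA polymerase I, 13 were called lower and none higher in A2780 at 12 h (median -0.46), and 12 lower and 3 higher in A2780cis (-0.45), against the same backgrounds. The catalytic subunit POLR1A was at -0.79 and -1.25, and POLR1H at 0.05, not called, and 0.64.

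The cytosolic ribosomal proteins, which these factors build into ribosomes, gave other counts. Of 79 ribosomal protein genes, 14 (17.7%) were called lower and 1 higher at 12 h in A2780 (background 26.1% and 28.6% of all genes tested), with a median log2 fold change of -0.13. Scaled by library size alone, 5 were called lower and 13 higher, where 3349 and 8084 of the 20240 genes tested were, and the median of the 79 was 0.09. In A2780cis none was called lower and 64 were called higher (background 28.9% and 31.0%), with a median of 0.50. The difference between the lines at 12 h was called for 60 of the 79, all toward a more positive effect in A2780cis, with a median of 0.64, where 3 of the 55 assembly genes were called in that direction (background 9.7% of all genes tested). By the mean of both lines RPL10A was the lowest of the list, at -0.86 in A2780 and 0.11 in A2780cis, and RPS20 the highest, at 0.32 and 0.76. Many ribosomal protein genes have pseudogenes, and reads that map to several places were divided among them in the counting.

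Untreated cells of the lines already differed. In A2780cis relative to A2780, 29 of the 55 genes were higher and 3 lower at 6 h (background 25.0% higher and 22.9% lower), and 24 higher and 5 lower at 12 h (25.4% and 27.5%), with 21 higher at both times (19.5%). NOP56 was at 506.2, 477.8 and 490.2 CPM in A2780 and 966.7, 866.2 and 995.3 CPM in A2780cis at 6 h, without overlap, a log2 fold change of 0.94. NCL was at 2040.6 to 2130.5 CPM and 3145.5 to 3581.0 CPM, and DKC1 at 280.0 to 316.2 CPM and 443.2 to 480.7 CPM, both apart. The most positive change was that of RRP1 at 6 h (0.97) and of BOP1 at 12 h (1.50), and the most negative that of WDR3 at both times (-0.70 and -0.73), which was at 258.0 to 309.0 CPM in A2780 and 163.4 to 182.3 CPM in A2780cis at 6 h. With only the compared libraries in the fit, 19 of the 55 genes were called higher at 6 h, where 3605 of the 16768 genes tested were. Over the 55 genes, rho of this line difference with GC content was 0.29 at 6 h and 0.53 at 12 h. Over all genes tested with a GC value it was 0.09 and 0.21. Of the 18 genes richest in GC, which include BOP1 at 65.6%, 13 were called higher at 12 h, and of the 18 poorest 5. Each line is 1 derivation, so that differences between these lines and those of the platinum-resistant state cannot be told apart.

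Untreated cells also differed between the harvest times. In A2780, 14 genes were lower and 8 higher at 12 h than at 6 h (background 10.3% and 16.6%), and in A2780cis 29 lower and 11 higher (21.9% and 18.0%). In A2780 the count of lower calls was 24 with size factors as in DESeq2 and with the DESeq2 test, 8 without untreated replicate 1 at 6 h and 5 without untreated replicate 3 at 12 h, and that of higher calls 2 without the first of these. The genes called higher in A2780 had 57.7% to 65.6% GC and those called lower 36.7% to 48.4%, and in A2780cis the ranges were 51.8% to 65.6% and 36.7% to 50.9%. BOP1 had the most positive change in time, at 1.14 in A2780 and 1.67 in A2780cis, and WDR75, with 37.7% GC, the most negative, at -0.50 and -0.55.

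Spearman's rho between this change in time and GC content was 0.85 in A2780 and 0.84 in A2780cis over the 55 genes, and 0.65 and 0.67 over 19889 genes tested, as a description across genes that share their libraries. With the trend on GC content removed from each library, a fit chosen after seeing the data, 10 genes were lower and 1 higher in A2780 (background of this fit 4.92% and 5.97%), and 9 lower and 4 higher in A2780cis (7.8% and 5.98%). With library size alone, higher calls made up 71.9% of all calls in A2780 instead of 61.7%. In A2780cis they made up 74.6% instead of 45.2%, and 17 of the 55 were called lower, where 1598 of the 20240 genes tested were.

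The mean GC trend was higher in treated than in untreated libraries in each line and at each time. Its height, as the difference in log2 CPM between genes of 60% and 40% GC, averaged -0.64 ± 0.279 in untreated and -0.107 ± 0.267 in treated A2780 at 6 h, and 0.0683 ± 0.14 and 0.161 ± 0.249 at 12 h (SD, n = 3 each). In A2780cis it averaged -0.514 ± 0.095 and -0.0817 ± 0.221 at 6 h, and 0.44 ± 0.263 and 0.723 ± 0.254 at 12 h. Spearman's rho of the treatment effect with GC content over the 55 genes was 0.75 in A2780 and 0.50 in A2780cis at 6 h, and 0.18 and 0.21 at 12 h. With the trend removed, 35 genes in A2780 and 37 in A2780cis were called lower at 6 h and none higher (background of this fit 14.7% and 19.7% lower, 12.6% and 13.1% higher), and 53 and 50 were called lower at 12 h (32.2% and 31.9%). PWP2 and BOP1, both rich in GC, then stood at -0.35 and -0.66 in A2780 at 6 h and were called lower. Over the 55 genes, rho between the effect at 12 h and the genomic span was -0.28 in A2780 and -0.43 in A2780cis, and over all genes -0.15 and -0.31.

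**Figure D5:**
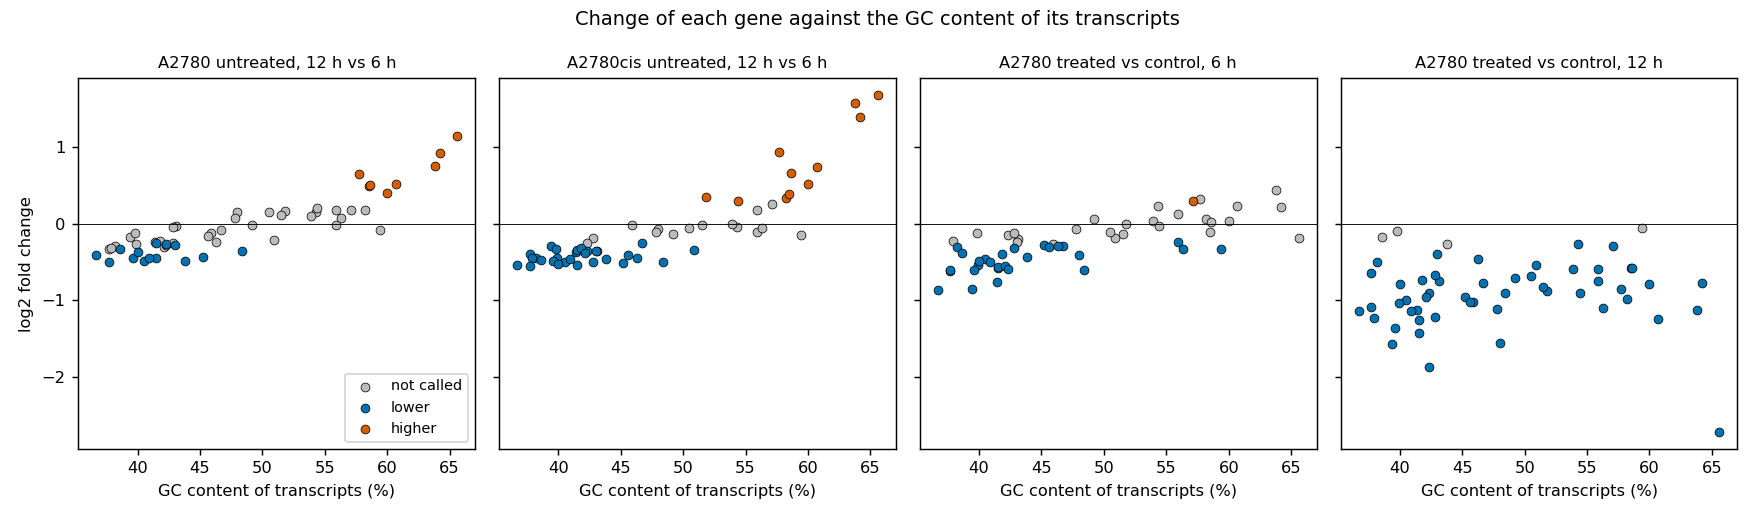
Log2 change of each of the 55 genes (vertical) against the GC content of its transcripts in percent (horizontal), from left to right for untreated A2780 at 12 h against 6 h, the same for A2780cis, and treated against control A2780 at 6 h and at 12 h. Blue and orange points were called lower and higher and grey points were not called. The first 3 panels rise with GC content (rho 0.85, 0.84 and 0.75), and in the last all points lie below 0 (rho 0.18).

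Some of these genes may share reads with other loci. BMS1 has 20 pseudogenes in the table whose summed mean count came to 32.1% of its own, and NPM1 has 49 with 4.68%, and the part of these copies in the changes of BMS1 and NPM1 was not tested. HEATR1, TBL3, WDR3, NOP14, TSR1, LTV1, NOB1, IMP3, NHP2, NOP2, NOP16, RRS1, FTSJ3 and EBNA1BP2 each share more than 10% of their exon length with another annotated gene. The genes that overlap NOP2 and RRS1 have no entry among the deposited counts.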

How the data were processed

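RNA-seq libraries of both lines, with and without 1 µM 5-FdU-ECyd for 6 or 12 h, were analysed in 8 groups of 3. The authors trimmed reads with Trimmomatic, aligned them to GRCh38.p7 with STAR 2.5.2b and counted them per gene with featureCounts, dividing reads that mapped to several places, so that the deposited values are estimated counts that need not be whole. The strand setting is not given in the sources used here, and the labels and the methods differ on single or paired reads. The members and the lists of other genes were chosen with earlier results of these data known.

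Here the deposited counts were rounded to whole numbers, filtered with edgeR's filterByExpr (minimum count 10, minimum total 15), which left 20240 of 63299 genes, scaled by TMM and fitted over all 24 libraries (16 residual degrees of freedom) with the quasi-likelihood test of edgeR 4.0.16 in R 4.3.3. The 12 comparisons were treated against untreated per line and time, the differences of these effects between lines and between times, and untreated cells between lines and times, each adjusted by Benjamini-Hochberg over all genes tested. CPM are TMM-scaled, except those of the cell type markers, which are scaled by the total count alone. Errors of fold changes are standard errors, and counts measure counting depth only. GC content and span were taken from GENCODE v44 annotation, and tables and figures were made with pandas 2.3.3 and matplotlib 3.10.9 under Python 3.11.15.

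Genes named are the most negative and most positive of each role at 12 h, the 3 largest decreases and up to 6 increases of each treatment comparison, the smallest p values of each difference, the largest change of each untreated comparison, and FBL, DKC1, NOP2, NCL, NPM1, GNL2 and GNL3; DDX52, NOP56, PWP2, TBL3, UTP4, WDR43, UTP18, NOP14 and UTP11 were chosen after their values were seen. Alternatives were library size alone, size factors as in DESeq2, the Wald test of DESeq2 1.42.0, no filter, counts not rounded, no lncRNA and rRNA genes, the compared libraries alone, the replicate number as a block, each compared library left out, and, chosen after seeing the data, a lowess trend on GC content (span 0.3) removed from each library. The scripts were tested on simulated data for A2780 at 12 h. Of 73 genes given a change of 0.5 on the log2 scale 32.9% were called, and of 72 given a change of 1, 86.1%. A gene not called can thus still have changed. No pair of libraries of the same group agreed within sampling noise, and pairs from different groups were not compared.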

Additional observations from a re-analysis of the deposited data

Results flagged for a closer look

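Treatment effects that differed between the lines or between the times, by a test of the difference itself (edgeR quasi-likelihood, adjusted over all genes tested), are listed here with the difference of the log2 fold changes, and no cause was tested. At 6 h the effect was more negative in A2780cis for RRP1 (-0.67) and RRP1B (-0.60). At 12 h it was more negative in A2780cis for RRP1B (-0.83), RRP1 (-0.61), UTP18 (-0.56), WDR43 (-0.50), UTP4 (-0.47), UTP11 (-0.40) and NOP14 (-0.39), and more positive for NHP2 (0.66), EBNA1BP2 (0.65) and IMP3 (0.35). Of all genes tested, 14.0% were called more negative and 9.7% more positive at 12 h, and neither share was exceeded among the 55. The calls of RRP1 and RRP1B at 6 h and of UTP18, UTP4, UTP11, NOP14 and IMP3 at 12 h were lost in some other fits. Between 6 h and 12 h, among the genes with the smallest p, the effect became more negative in A2780 for UTP20 (-1.28) and NOLC1 (-1.05) and in A2780cis for UTP20 (-1.10) and HEATR1 (-1.07), and more positive in A2780cis for IMP3 (0.53). Groups of 3 libraries are too small for a test of single libraries that stand apart.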

How the results depend on the processing

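Over the listed alternatives, 1807 of the values for named genes kept their direction and their side of the threshold, 129 kept the direction but lost the call, 17 gained one and 24 changed sign, and 416 of the summary values stayed close while 52 moved. With library size alone the median of the 55 genes in A2780 at 12 h was -0.66, and the count of more negative effects in A2780cis was 0 at 6 h and 13 at 12 h. The same scale gave 5 genes lower in untreated A2780cis than A2780 at 6 h and 17 lower in A2780cis at 12 h against 6 h. With only the compared libraries in the fit, the more negative effects in A2780cis numbered 0 at 6 h and 4 at 12 h, and 19 genes were higher in untreated A2780cis at 6 h. Without lncRNA and rRNA genes 5 effects were more positive in A2780cis at 12 h, and with the GC trend removed 9. With that trend removed, untreated cells at 12 h against 6 h had 1 higher gene in A2780, and 9 lower and 4 higher in A2780cis, while size factors as in DESeq2 and the DESeq2 Wald test each gave 24 lower in A2780. Apart from fewer libraries or another scale, the cause of these shifts was not tested.

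With each compared library left out in turn, genes called lower after treatment numbered 19 to 26 at 6 h and 49 to 51 at 12 h in A2780, and 25 to 31 and 50 to 50 in A2780cis. The medians ranged from -0.29 to -0.21 and -0.91 to -0.86 in A2780, and from -0.35 to -0.26 and -0.93 to -0.83 in A2780cis. Effects more negative in A2780cis numbered 0 to 2 at 6 h and 4 to 9 at 12 h, and more positive ones 2 to 7 at 12 h. Effects more negative at 12 h than at 6 h numbered 34 to 40 in A2780 and 35 to 41 in A2780cis. Untreated A2780cis had 2 to 3 lower and 23 to 28 higher genes at 6 h, and 4 to 7 lower and 19 to 22 higher at 12 h. Over time, untreated A2780 had 5 to 18 lower and 2 to 8 higher, and untreated A2780cis 21 to 29 lower and 8 to 11 higher.

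Whether the replicate numbers pair the samples is not known. Deviations of treated and untreated libraries with the same number correlated at -0.25 to 0.31, which cannot exclude a shared culture or day, and the labels name none. With the replicate number as a block, 28 and 51 genes were lower in A2780 at 6 h and 12 h and 34 and 50 in A2780cis, and 9 effects were more negative in A2780cis at 12 h. Over all 20240 genes tested, 3056 effects were more negative with the block and 2826 without it.

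The values that changed sign were not called. For FBL in A2780cis they were -0.0337 without the filter, -0.11 with the GC trend removed and, with 1 library left out, -0.14 to 0.11 at 12 h. At 6 h FBL was at -0.0032 with size factors as in DESeq2, -0.0043 with DESeq2, -0.15 with the GC trend removed and -0.0245 to 0.0675 with 1 library left out. EBNA1BP2 in A2780cis was at 0.0491 with library size alone, 0.0093 without lncRNA and rRNA genes and -0.20 to 0.0705 with 1 library left out at 12 h. At 6 h it was at -0.0055 with size factors as in DESeq2, -0.0067 with DESeq2, -0.0140 with the GC trend removed and -0.0244 to 0.0385 with 1 library left out. In A2780 at 6 h, leaving out 1 library gave -0.0097 to 0.12 for EBNA1BP2, -0.51 to 0.0817 for BOP1 and -0.21 to 0.0017 for RRP1. With library size alone IMP3 was at 0.16 and UTP15 at 0.0398 in A2780 at 12 h.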
